A study of Mus musculus with 4 samples.

Results

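The genes described here encode the translation initiation and elongation factors of the mouse, with the enzymes and binding proteins named after them. They were taken by symbol: every row whose symbol begins with Eif or Eef followed by a digit, without the Y-linked Eif2s3y and without rows marked as pseudogenes. This gave 71 of 55401 genes listed, of which 66 had at least 1 count and 63 had enough counts to be tested. Initiation factors and their regulators made up 52 of the 63 tested genes and elongation factors with their modifying enzymes 11.

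Splenic B220+ B cells of C57BL/6J mice were sorted and their RNA was sequenced, in 2 libraries of NSD1B WT and 2 of NSD1B KO. NSD1B KO mice were Mb1-Cre+ NSD1fl/fl, with loxP sites around exons 6 to 8 of the gene, and NSD1B WT mice were Mb1-Cre+ NSD1+/+ littermates, so both genotypes carried the Cre transgene. Mb1-Cre is driven from Cd79a, which acts in the B lineage from its early stages, and the mice of the study were 7 to 9 weeks old and of both sexes. Neither the labels nor the Methods say whether the 2 libraries of a genotype came from separate mice, so each p measures the spread between these libraries, which may be technical.

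Translation of most mRNAs begins when eIF4E binds the cap, eIF4G bridges it to eIF3 on the small ribosomal subunit, and eIF4A unwinds the leader. eIF2 delivers the initiator tRNA, eIF1 and eIF1A keep the ribosome scanning until a start codon is found, eIF5 triggers GTP hydrolysis on eIF2, and eIF2B then recharges eIF2 with GTP. During elongation eEF1A brings aminoacyl tRNA, the eEF1B subunits recharge it, and eEF2 moves the ribosome along. In B cells this machinery limits growth and antibody output, and it is regulated through phosphorylation of eIF2 alpha and through the binding proteins that sequester eIF4E.

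Between 6769118 and 7566834 counts fell on genes in each library. A gene was called when edgeR's quasi-likelihood test across all genes gave a Benjamini-Hochberg adjusted p under 0.05 and a fold change over 1.2. Nsd1 had 497 and 480 counts in the NSD1B WT libraries and 284 and 280 in the NSD1B KO libraries, a log2 fold change of -0.74 (SE 0.11), where the count of the whole gene includes exons outside the deleted ones. All 10 B cell markers had counts in all 4 libraries, and in NSD1B KO 6 were called lower, among them Cd79a (log2 fold change -1.33) and Pax5 (-3.29, with 30 and 31 counts), and 2 higher, Ebf1 (0.75) and Ighd (0.66). All 5 tested erythroid markers were higher in NSD1B KO, with a summed level of 35.5 to 39.6 CPM (counts scaled to library size by the TMM method) in NSD1B WT and 1688 to 1942 CPM in NSD1B KO. Of 8 myeloid markers 6 were higher and 2 lower, and their summed level was 4571 and 4673 CPM in NSD1B WT against 6158 and 5803 CPM in NSD1B KO. The summed level of T cell markers was 66.1 CPM in both NSD1B WT libraries against 86.6 and 79.3 CPM, where 3 of 4 tested markers were called higher and Trac lower (-1.29), with Cd4 and Cd8a at 0. For the NK cell markers it was 56.5 and 59.8 CPM against 98.4 and 96.4 CPM, where 3 of 4 tested markers were called higher and Klrb1c went from 26 and 21 counts to 0 and 0, with Ncr1 and Gzma at 0. Of 4 tested plasma cell markers 2 were higher and 2 lower, with Sdc1 at 0. The tested plasmacytoid dendritic cell markers, Bst2 and Tcf4, were called higher, with Siglech at 0 and Ccr9 untested with its few counts all in NSD1B WT. Pf4, the only tested platelet marker, was called higher too, with Ppbp and Itga2b at 0. Of 5 tested proliferation genes 4 were called lower, and these, Mki67, Top2a, Ccnb1 and Cdk1, had counts only in NSD1B WT, while Pcna, with the most counts, was at 0.19 and was not called. What part these marker differences have in the results on translation factors was not tested, and in bulk RNA fewer cells of a type and less RNA per cell cannot be told apart.

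The translation factors moved in both directions. In NSD1B KO 21 of 63 were called higher (33.3%) and 28 lower (44.4%), beside 37.1% higher and 41.1% lower among all 11657 tested genes. The share called was therefore close to that of any other genes in these libraries. Counts of calls within the factor groups and gene lists below are to be read beside these shares. Their median log2 fold change was -0.15, beside -0.10 for all tested genes. The median absolute change was smaller, 0.72 against 1.16 for all genes. Changes were smaller at higher levels among all genes, and 28 of 63 factors had a mean over 100 CPM. Beside genes of like level the factors changed less only within 100 to 300 CPM. There the median absolute change was 0.41 over 18 factors and 0.45 over 1004 genes. Under 10 CPM it was 7.27 over 9 factors and 4.04 over 4644 genes, where fitted values at 0 counts depend on the prior count. Within 10 to 30 CPM it was 2.01 over 8 factors and 1.23 over 3020 genes. Within 30 to 100 CPM it was 0.93 over 18 factors and 0.73 over 2477 genes. Above 300 CPM it was 0.50 over 10 factors and 0.36 over 512 genes. All members together held 1.12% and 1.13% of the counts in NSD1B WT and 1.06% and 1.02% in NSD1B KO.

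**Figure D1:**
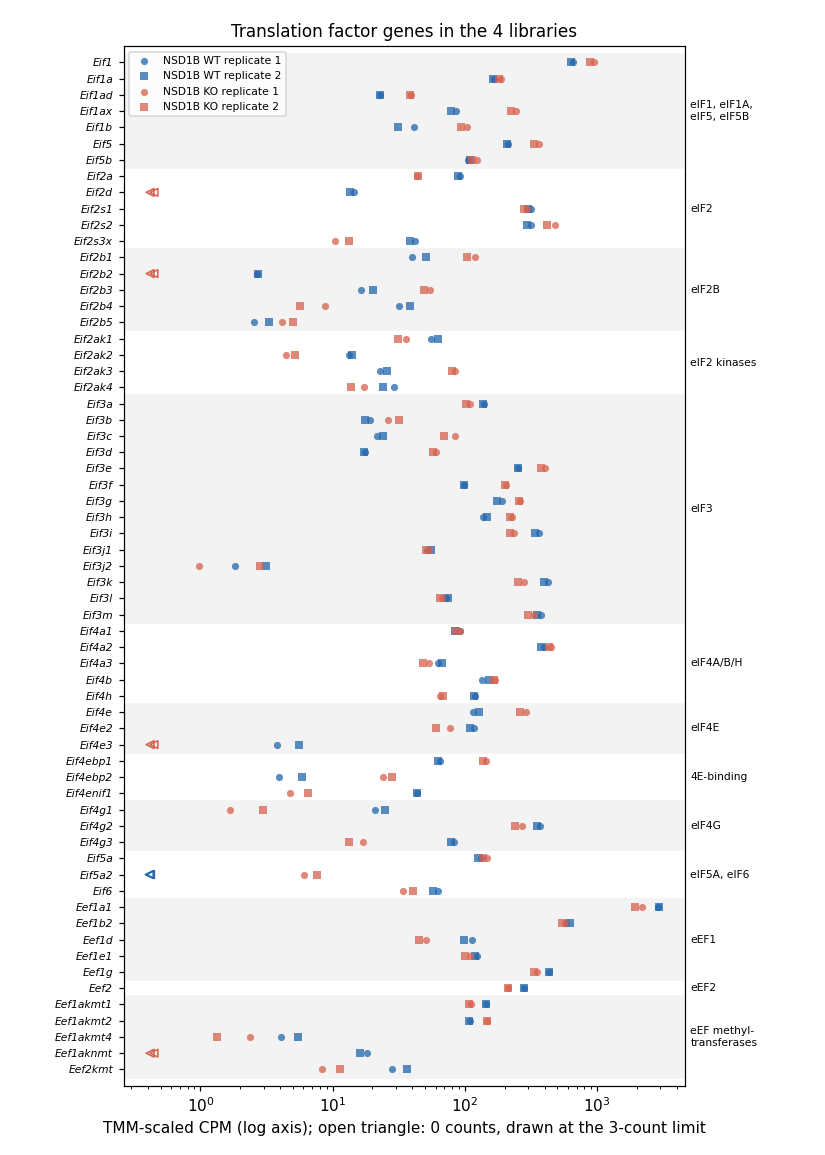
Level of each of the 63 tested translation factor genes in the 4 libraries, as TMM-scaled CPM, on a log axis and grouped by factor. Blue marks are NSD1B WT and red marks NSD1B KO libraries. Open triangles are 0 counts, drawn at the level of 3 counts. The levels run from a few CPM to Eef1a1 at 2920 CPM in NSD1B WT.

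The divide between initiation and elongation was uneven. Among initiation factors 20 of 52 were called higher and 20 lower, with a median of 0.07. Among elongation factors and their enzymes 1 of 11 was called higher and 8 lower, with a median of -0.39. Among all tested genes 37.1% were called higher and 41.1% lower, with a median of -0.10. Once each library was corrected for exon length and GC content, Eef2 and Eef1g turned to 0.18 and 0.14. That correction also ended the call of Eef1akmt1 (-0.03), and that of Eef1akmt4 when replicate number was added to the model. The summed level of the elongation genes was 4733 and 4811 CPM in NSD1B WT and 3734 and 3433 CPM in NSD1B KO, of which Eef1a1 alone made up most. The summed level of the initiation genes went the other way, from 6276 and 6110 CPM to 7349 and 6862 CPM. Part of this rise lay in 7 genes for start codon scanning, whose sum went from 1296 and 1253 CPM to 2001 and 1873 CPM.

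**Figure D2:**
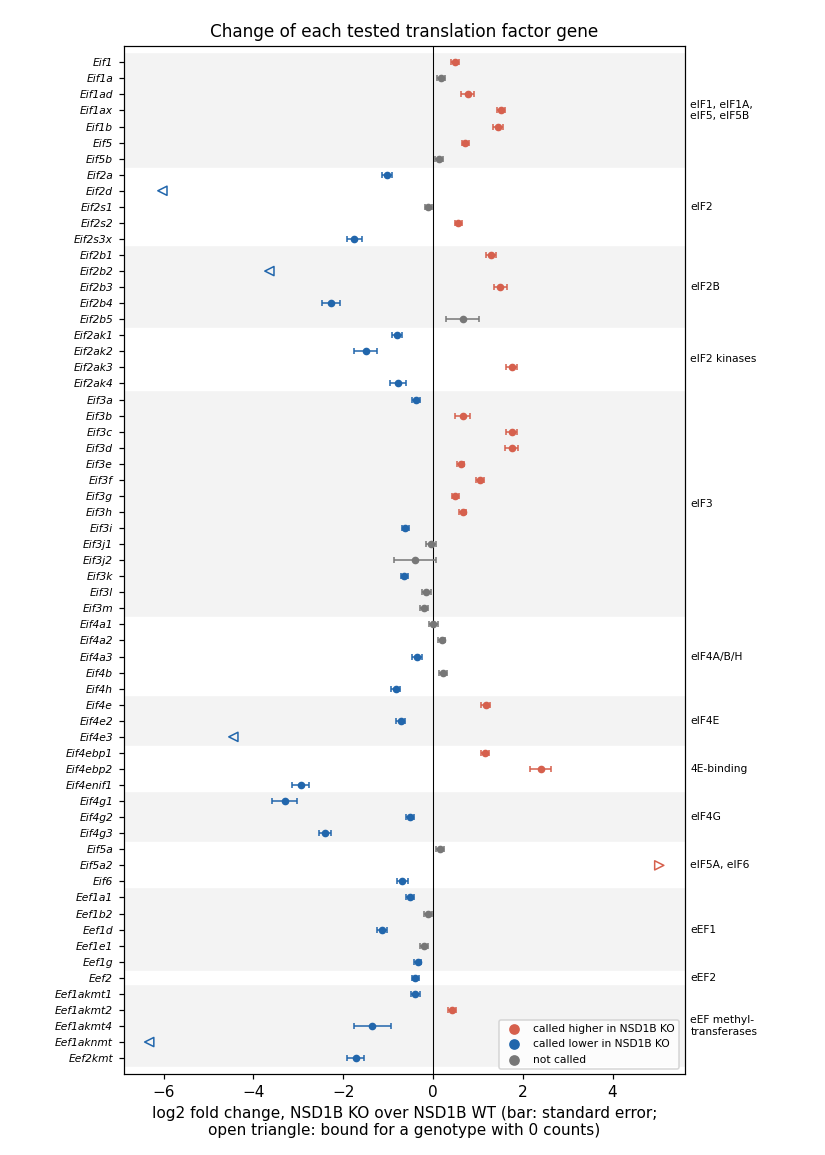
The log2 fold change of NSD1B KO over NSD1B WT for the 63 tested genes, with its standard error from edgeR. Red marks were called higher (21 genes), blue marks lower (28 genes) and grey marks were not called (14 genes). Open triangles give the bound for the 5 genes with 0 counts in one genotype, taken against 3 counts over the group.

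Of the 71 genes, 54 were matched by symbol to RefSeq promoter windows (GRCm38.p6, the build that corresponds to mm10), and 50 of these were tested. The 250 bases before the start were CpG-rich, here an observed to expected CpG ratio over 0.6 with a GC content over 50%, in 41 of the 50 (82.0%) and in 67.4% of 7963 tested genes with a window. These bases were searched on both strands for the TATA box TATAAA, the CCAAT box CCAAT, the cAMP response element TGACGTCA and the core CCGGAAG bound by ETS factors, and the last was singled out after the counts were seen. The ETS core was present for 8 of 17 factors called higher (47.1%), 1 of 21 called lower (4.76%) and 3 of 12 not called (25.0%). Among all tested genes it was present for 17.4% of those called higher, 17.3% of those called lower and 18.9% of those not called, and it lay in 6.91% of all 32851 windows. The matches of the higher genes and of the 1 lower gene are printed with 11 bases on either side because the count turns on them. Capitals mark the core, which reads CTTCCGG where it lies on the strand opposite to the gene. Every sequence is on the strand of the gene. Some of these bases lie in exons annotated in GENCODE, all 29 for Eif1ad, for Eif1b and for the first printed match of Eif3c. The windows of Eif1b and of that Eif3c match lie within the annotated span of the gene itself.
Eif1ad, higher, chr19:5366645-5366673, plus strand: ctcgacttccgCTTCCGGgtcgttttatg
Eif1ax, higher, chrX:159371955-159371983, plus strand: cctcccgccccCTTCCGGacgccggaggc
Eif1b, higher, chr9:120492445-120492473, plus strand: cgccgttgcacCCGGAAGcgcctccgccc
Eif3c, higher, chr7:126566383-126566411, minus strand: aaccttttcctCTTCCGGcgtcgtgcctg
Eif3c, higher, chr7:126566417-126566445, minus strand: attctttggtgCTTCCGGgaagtgacgcc
Eif3d, higher, chr15:77970877-77970905, minus strand: gctgtgacacaCTTCCGGttgtgtctcac
Eif3g, higher, chr9:20898617-20898645, minus strand: cggccgcggcaCCGGAAGcctcttctact
Eif4ebp2, higher, chr10:61452776-61452804, minus strand: gccttcgaccgCTTCCGGtagtcatcgtt
Eif5a2, higher, chr3:28781102-28781130, plus strand: agctctgcacgCCGGAAGtgcactaatcc
Eif5a2, higher, chr3:28781230-28781258, plus strand: cggggcctatcCCGGAAGtgtggtcgcgg
Eif4e2, lower, chr1:87213905-87213933, plus strand: tcgccagccaaCCGGAAGtagccgggccc

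Eif3c and Eif5a2 each held 2 matches. A match of letters is a description of the window and not a bound site. TATAAA was present for 4 of the 50 tested factors, CCAAT for 17 and TGACGTCA for 0, against 7.92%, 40.4% and 3.10% of all tested genes. The palindromic NRF1 motif was also searched and lay in 1 of the 69 windows of members (1.45%) and in 0.782% of all windows.

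Among the tested members 5 had no count in one genotype, and their promoters are shown for that reason. For 3 of them there were 100 bases of the RefSeq window outside annotated exons, which are printed with each CpG in capitals. These hold 7 CpGs for Eif2d, 7 for Eif2b2 and 13 for Eif5a2.
Eif2d, 0 counts in NSD1B KO, chr1:131153081-131153180, plus strand: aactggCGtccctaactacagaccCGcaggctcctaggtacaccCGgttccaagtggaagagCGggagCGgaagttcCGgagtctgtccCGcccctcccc
Eif2b2, 0 counts in NSD1B KO, chr12:85219381-85219480, plus strand: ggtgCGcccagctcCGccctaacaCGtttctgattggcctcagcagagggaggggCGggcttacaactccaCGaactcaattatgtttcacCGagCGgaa
Eif5a2, 0 counts in NSD1B WT, chr3:28781176-28781275, plus strand: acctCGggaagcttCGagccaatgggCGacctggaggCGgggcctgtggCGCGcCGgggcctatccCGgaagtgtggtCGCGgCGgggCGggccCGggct

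Eef1aknmt and Eif4e3 were the others at 0 in NSD1B KO. Genes at 0 in both libraries of one genotype made up 5 of 63 tested factors (7.94%) and 2203 of all 11657 tested genes (18.9%).

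Most factors that scan for the start codon rose. Of 7 genes 5 were called higher (71.4%) and 0 lower, beside 37.1% and 41.1% of all tested genes. Their median log2 fold change was 0.72, and their summed level went from 1296 and 1253 CPM in NSD1B WT to 2001 and 1873 CPM in NSD1B KO. Eif1, the guardian of start codon selection and the one of them with the most counts, had 4730 and 4687 counts in NSD1B WT and 6783 and 6001 in NSD1B KO. Both NSD1B KO libraries lay above both NSD1B WT libraries, at 916 ± 35.7 CPM against 651 ± 14.7 CPM (SD, n = 2), a log2 fold change of 0.49 (SE 0.08, adjusted p = 9.66e-08). Its paralog Eif1b had 295 and 229 counts against 741 and 633, a log2 fold change of 1.44 (SE 0.11, adjusted p = 8.14e-16).

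eIF1A is encoded by Eif1a on chromosome 18 and by Eif1ax on the X chromosome, and these proteins are nearly the same. Eif1ax had 617 and 572 counts in NSD1B WT and 1759 and 1502 in NSD1B KO, going from 82.2 ± 5.72 to 234 ± 14.9 CPM (SD, n = 2), a log2 fold change of 1.51 (SE 0.09, adjusted p = 3.37e-20). Eif1a was at 0.18 (SE 0.08, adjusted p = 0.0507) and was not called. The counts of Eif1ax were therefore 52.0% and 48.1% of those of Eif1a in NSD1B WT and 129% and 123% in NSD1B KO, so the ratio went from under to over 100% (the genes were not scaled by length here). The GTPase activator gene Eif5 was higher by 0.72 and Eif1ad, which encodes an eIF1A domain protein, by 0.77. Eif5b, whose product joins the ribosomal subunits, was at 0.14 (adjusted p = 0.151) and was not called. Exonic bases are shared with a neighbouring gene for Eif1ad (15.3%, Banf1), Eif1b (12.7%, D830035M03Rik) and Eif5b (16.8%, Rev1).

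The subunits of eIF2 went in different directions. Eif2s1, the alpha subunit that the stress kinases phosphorylate, had 2245 and 2204 counts in NSD1B WT and 2134 and 1871 in NSD1B KO, and its log2 fold change of -0.10 (SE 0.08, adjusted p = 0.249) was not called. Eif2s2, the beta subunit, had 2255 and 2176 counts against 3486 and 2833 and was called higher by 0.56 (SE 0.08, adjusted p = 2.23e-08). Eif2s3x, the gamma subunit that holds GTP, had 299 and 282 counts against 76 and 90 and fell by 1.75 on the log2 scale (SE 0.17, adjusted p = 3.10e-13).

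The beta subunit counts were 100% and 98.7% of the alpha subunit counts in NSD1B WT and 163% and 151% in NSD1B KO, whereas those of Eif2s3x were 13.3% and 12.8% against 3.56% and 4.81%. Eif2s3x escapes X inactivation and has a Y-linked homolog, Eif2s3y, which had 1014 and 988 counts in NSD1B WT and 169 and 184 in NSD1B KO, a log2 fold change of -2.45. Reads from the 2 homologs may be split between them in the counting. Both genes of the gamma subunit were thus lower, while 3 other Y-linked genes were higher. Ddx3y had 624 and 641 counts against 914 and 875, Kdm5d 89 and 77 against 365 and 300, and Uty 121 and 113 against 181 and 164. Xist, which is made from the inactive X chromosome, was lower like the gamma subunit genes, with 47 and 62 counts in NSD1B WT and 1 and 2 in NSD1B KO. The part of the sex-linked differences in the values of Eif2s3x and of Eif1ax was not tested.

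Both genes for alternative initiator tRNA carriers were lower. Eif2a had 653 and 644 counts in NSD1B WT and 313 and 298 in NSD1B KO, a log2 fold change of -1.03 (SE 0.11). Eif2d, on chromosome 1 from 131153181 to 131187658, had 104 and 99 counts against 0 and 0, at least 65.2-fold lower when NSD1B KO is set to 3 counts over the group.

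The 5 subunit genes of eIF2B, the guanine nucleotide exchange factor of eIF2, were divided. Eif2b1, the alpha subunit, had 285 and 375 counts in NSD1B WT and 856 and 702 in NSD1B KO, a log2 fold change of 1.29 (SE 0.11, adjusted p = 6.72e-15). Eif2b3, the gamma subunit, had 118 and 148 counts against 394 and 333, a log2 fold change of 1.5 (SE 0.14). Eif2b4, the delta subunit, moved the other way, with 226 and 282 counts against 63 and 38, and fell by 2.28 on the log2 scale (SE 0.20, adjusted p = 1.65e-14).

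The beta subunit gene Eif2b2 was low throughout, with 19 and 20 counts in NSD1B WT and 0 and 0 in NSD1B KO, at least 12.5-fold lower. Eif2b5, the catalytic epsilon subunit, had 18 and 24 counts against 30 and 34, a log2 fold change of 0.66 (SE 0.37, adjusted p = 0.0989) that was not called. Eif2b5 was called higher once the trend with exon length and GC content was removed. The part of its low counts in the missing call was not tested.

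Of the 4 kinases that phosphorylate eIF2 alpha, 3 were called lower and 1 higher. Eif2ak3 (PERK, activated by unfolded protein in the endoplasmic reticulum) had 164 and 188 counts in NSD1B WT and 609 and 535 in NSD1B KO, a log2 fold change of 1.75 (SE 0.12, adjusted p = 4.29e-18). Eif2ak1 (HRI, the heme-regulated kinase) had 397 and 455 counts against 259 and 211 and fell by 0.80. Eif2ak2 (PKR, activated by double-stranded RNA) had 96 and 102 counts against 32 and 35 and fell by 1.5 on the log2 scale.

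Eif2ak4 (GCN2, which senses uncharged tRNA) had 208 and 177 counts against 125 and 93 and fell by 0.77. With 3 genes down and 1 up, their summed level was 121 and 126 CPM in NSD1B WT against 142 and 130 CPM in NSD1B KO.

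Among other genes of this response, 3 of 10 tested were called higher and 3 lower. Ppp1r15a (GADD34), the inducible phosphatase subunit that reverses the phosphorylation, had 155 and 174 counts in NSD1B WT and 0 and 0 in NSD1B KO, at least 106-fold lower. Impact, an inhibitor of GCN2 activation, had 82 and 78 counts against 374 and 457, a log2 fold change of 2.43. Atf4, the transcription factor whose translation rises when eIF2 alpha is phosphorylated, had 249 and 273 counts against 258 and 279 and was not called (adjusted p = 0.504). Its target genes differed in direction. Psat1, of serine synthesis, had 78 and 76 counts against 0 and 0, at least 49.4-fold lower, and Ddit4, an inhibitor of mTORC1, fell by 1.86. Phgdh, also of serine synthesis, was higher by 0.35, and Nck1, an adaptor that promotes the dephosphorylation, by 0.55.

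eIF3, the largest initiation factor, holds the ribosome, the other factors and the mRNA together. Of its 14 genes 7 were called higher, 3 lower and 4 were not called. Their median change was 0.23 on the log2 scale. The largest increases were in Eif3c and Eif3d. Eif3c, a subunit of the structural core, had 155 and 176 counts in NSD1B WT and 607 and 469 in NSD1B KO, a log2 fold change of 1.75 (SE 0.13, adjusted p = 2.73e-17). Eif3d, the subunit that can bind the cap itself, had 126 and 126 counts against 433 and 386, also 1.75 (SE 0.14, adjusted p = 5.97e-16). Of the exonic bases of Eif3d 43.3% are shared with the antisense gene Gm17638, and as the strand setting of the counting is not given, reads of the pair cannot be told apart.

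The largest decreases were in Eif3k and Eif3i. Eif3k, a small subunit at the edge of the complex, had 3062 and 2888 counts in NSD1B WT and 2007 and 1688 in NSD1B KO and fell by 0.64 (SE 0.08, adjusted p = 1.12e-09), a call that was lost (-0.14) when the length and GC trend was removed. Eif3i, which sits with Eif3b and Eif3g near the mRNA channel, had 2583 and 2464 counts against 1695 and 1466 and fell by 0.62 (SE 0.08, adjusted p = 1.86e-09), while its partners were higher, Eif3b by 0.66 and Eif3g by 0.50. The other genes called were Eif3e (0.62), Eif3f (1.05) and Eif3h (0.66), all higher, and Eif3a (-0.38), lower. Eif3j1, Eif3j2, Eif3l and Eif3m were at -0.05, -0.40, -0.15 and -0.20 and were not called, Eif3m with an adjusted p of 0.023 and a fold change under the limit. Eif3j1 and Eif3j2 are near-identical copies, and how reads were divided between them is uncertain.

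The order of the subunits by level changed. Per kb of exon, Eif3k was highest in NSD1B WT with 152 CPM, followed by Eif3m with 141 CPM, and next came Eif3i, Eif3g and Eif3h with 94.2, 92.4 and 87.7 CPM, where the libraries of neighbours in the order overlapped. In NSD1B KO Eif3h and Eif3g were highest with 138 and 131 CPM per kb and Eif3k was in place 4 with 98.1. Eif3c went from place 11 to place 8, and its counts went from 15.6% and 17.5% of those of Eif3a, the scaffold subunit, to 76.3% and 68.2%. The spread over the 14 genes was nearly the same in both genotypes, with an SD of the log2 level of 2.22 in NSD1B WT and 2.11 in NSD1B KO. Levels per kb depend on the transcripts in use, since they were taken over all annotated exons.

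**Figure D3:**
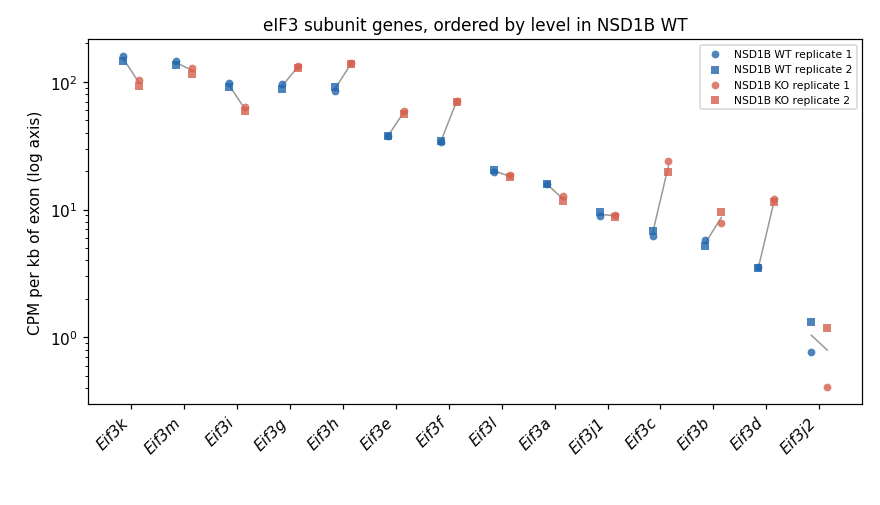
Level of the 14 eIF3 genes as CPM per kb of annotated exon, on a log axis, ordered by their mean in NSD1B WT. Blue marks are the 2 NSD1B WT and red marks the 2 NSD1B KO libraries, and each line joins the genotype means. Eif3k goes from 152 to 98.1 CPM per kb while Eif3c and Eif3d rise from the lower end of the order.

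In the cap-binding complex eIF4F all 3 genes of the eIF4G scaffold were called lower. Eif4g1, the main scaffold, at chromosome 16 from 20668313 to 20692884, had 150 and 181 counts in NSD1B WT and 12 and 20 in NSD1B KO, 22.8 ± 2.66 against 2.32 ± 0.922 CPM (SD, n = 2), and fell by 3.30 on the log2 scale (SE 0.28, adjusted p = 5.14e-15). Eif4g3, its homolog, had 593 and 577 counts against 123 and 90 and fell by 2.40 (SE 0.13, adjusted p = 2.39e-21).

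Eif4g2 (DAP5, which lacks the eIF4E-binding part and serves cap-independent initiation) had the most counts of the 3, with 2651 and 2589 counts in NSD1B WT and 1931 and 1616 in NSD1B KO, and fell by 0.51 (SE 0.08). The loss was therefore unequal. The counts of Eif4g1 were 5.66% and 6.99% of those of Eif4g2 in NSD1B WT and 0.621% and 1.24% in NSD1B KO, and those of Eif4g3 went from 22.4% and 22.3% to 6.37% and 5.57%.

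Eif4e, the cap-binding protein, rose. It had 833 and 937 counts in NSD1B WT and 2082 and 1761 in NSD1B KO, 122 ± 8.20 against 275 ± 19.5 CPM (SD, n = 2), a log2 fold change of 1.17 (SE 0.09, adjusted p = 5.70e-17). Eif4e2 (4EHP, which binds the cap but not eIF4G and represses translation) had 841 and 805 counts against 559 and 405 and fell by 0.72 (SE 0.10). The counts of Eif4e2 thus went from 101% and 85.9% to 26.8% and 23.0% of those of Eif4e.

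Eif4e3, a further cap-binding homolog, had 27 and 41 counts in NSD1B WT and 0 and 0 in NSD1B KO, at least 21.8-fold lower. It shares 14.8% of its exonic bases with Gm20696 on the same strand. The germline homolog Eif4e1b had no count.

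The binding proteins that compete with eIF4G for eIF4E rose with it. Eif4ebp1 had 460 and 457 counts in NSD1B WT and 1048 and 915 in NSD1B KO, a log2 fold change of 1.15 (SE 0.09, adjusted p = 2.89e-15). As a share of Eif4e its counts were 55.2% and 48.8% against 50.3% and 52.0%, so the ranges of the genotypes overlapped. Eif4ebp2 had 28 and 43 counts against 174 and 188, a log2 fold change of 2.40 (SE 0.23, adjusted p = 2.56e-13).

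Eif4enif1 (4E-T), which carries eIF4E to the nucleus and to processing bodies, went the other way. It had 309 and 320 counts in NSD1B WT and 34 and 44 in NSD1B KO and fell by 2.95 (SE 0.19, adjusted p = 5.36e-19). Eif4ebp3 had no count.

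Of the 5 genes of the eIF4A helicases and their cofactors 2 were called lower and 0 higher. Eif4a1 had 659 and 618 counts in NSD1B WT and 661 and 575 in NSD1B KO, a log2 fold change of 0.01 (SE 0.10, adjusted p = 0.962) that was not called. Eif4a2, its homolog, had 2816 and 2741 counts against 3223 and 2899, a log2 fold change of 0.19 (SE 0.08) with an adjusted p of 0.0219 and a fold change under the limit. Eif4b, an activator of the helicase, had 956 and 1106 counts against 1208 and 1114, and its 0.23 was under the limit as well.

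Eif4h, a second cofactor of the helicase, had 858 and 853 counts against 467 and 461 and fell by 0.83 (SE 0.10, adjusted p = 9.15e-11). Eif4a3, a core protein of the exon junction complex, had 445 and 494 counts against 384 and 325 and was called lower by -0.35 (SE 0.11), a call that was lost without NSD1B WT replicate 2 (-0.27, adjusted p = 0.0558) and turned to 0.19 when the trend with exon length and GC content was removed. The near copy Eif4a3l1 had at most 1 count in a library and was not tested. Eif4a3l2, another near copy, had 5 and 7 counts in NSD1B WT and 3 and 6 in NSD1B KO and was not tested either.

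**Figure D4:**
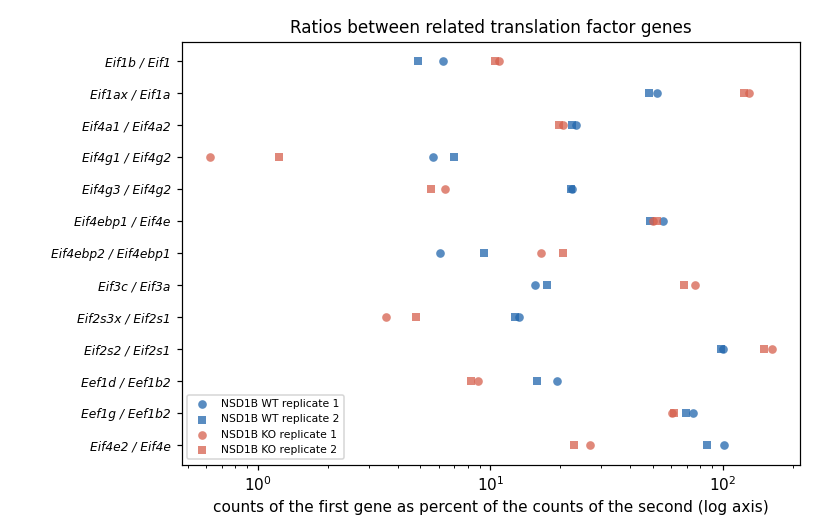
Counts of one translation factor gene as a percent of those of a related gene in each library, on a log axis. Blue marks are the 2 NSD1B WT and red marks the 2 NSD1B KO libraries. Eif1ax over Eif1a, Eif3c over Eif3a and Eif2s2 over Eif2s1 lie higher in NSD1B KO, the eIF4G ratios and Eif2s3x over Eif2s1 lie lower, and Eif4ebp1 over Eif4e overlaps.

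Genes that act on eIF4F through mTORC1 or on the cap were called in both directions as well. Of 16 tested 7 were higher (43.8%) and 5 lower (31.2%), beside 37.1% and 41.1% of all tested genes. Rptor, the subunit through which mTORC1 holds its substrates, had 0 and 0 counts in NSD1B WT and 55 and 44 in NSD1B KO, at least 34.3-fold higher. Mknk1, a kinase of eIF4E, had 26 and 28 counts against 237 and 211, a log2 fold change of 3.10 (SE 0.22), and its homolog Mknk2 was higher by 1.0. Tsc1, of the complex that restrains mTORC1, had 170 and 139 counts against 32 and 34 and fell by 2.17, whereas its partner Tsc2 was higher by 1.04. Akt1s1 (PRAS40), another inhibitor, fell by 1.89, and Larp4b, an RNA-binding protein of translated mRNA, was higher by 1.33.

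The 3 genes of this list with the most counts had smaller changes. Rps6, a ribosomal protein and mTORC1 pathway target, had 6586 and 7240 counts in NSD1B WT and 7006 and 6379 in NSD1B KO, a log2 fold change of 0.01. Rheb, the GTPase that activates mTORC1, fell by 0.37, and Pdcd4, an inhibitor of eIF4A, was higher by 0.68.

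Of the poly(A)-binding, reinitiation, termination and recycling genes 7 of 13 tested were called higher (53.8%) and 4 lower (30.8%). Among all tested genes these shares were 37.1% and 41.1%. Paip1, which couples the poly(A)-binding protein to eIF3 and eIF4A and promotes translation, had 535 and 533 counts in NSD1B WT and 87 and 59 in NSD1B KO and fell by 2.82 (SE 0.15, adjusted p = 3.10e-22). Its counterparts Paip2 and Paip2b, which repress, were higher by 0.61 and 1.15. The poly(A)-binding protein genes Pabpc1 and Pabpc4 fell by 0.71 and 2.11, Dhx29, a helicase for structured leaders, was higher by 2.49, and Denr, a reinitiation factor, by 0.35.

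eIF5A helps the ribosome through difficult peptide bonds and eIF6 keeps free large subunits apart from small ones. Eif5a had 944 and 917 counts in NSD1B WT and 1054 and 930 in NSD1B KO, a log2 fold change of 0.15 (SE 0.09, adjusted p = 0.124) that was not called. Eif5a2, the homolog with restricted expression, at chromosome 3 from 28781276 to 28798846, had 0 and 0 counts against 44 and 51, at least 32.9-fold higher. In NSD1B KO its counts were 4.17% and 5.48% of those of Eif5a. Eif6 had 450 and 417 counts against 247 and 272 and fell by 0.68 (SE 0.12, adjusted p = 1.35e-06), a call also lost (-0.14) without the length and GC trend.

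The elongation factors eEF1 and eEF2 that were called were all lower, 4 of 6 tested, although Eef1g and Eef2 turned to 0.14 and 0.18 after the length and GC correction. Eef1a1, the GTPase that brings aminoacyl tRNA, had 20726 and 21591 counts in NSD1B WT and 15604 and 12992 in NSD1B KO, 2920 ± 37.5 against 2050 ± 167 CPM (SD, n = 2), and fell by 0.51 (SE 0.08, adjusted p = 4.58e-08). Eef1a2, its muscle and neuron homolog, had at most 2 counts in a library. Eef1a1 has many processed pseudogenes, and reads that were not unique, 11.2% to 13.2% of the reads, were counted to no gene.

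The exchange factor subunits of eEF1B were unequally lower. Eef1d, the delta subunit, had 809 and 722 counts in NSD1B WT and 369 and 303 in NSD1B KO and fell by 1.14 (SE 0.11, adjusted p = 1.28e-13). Eef1g, the gamma subunit, had 3100 and 3154 counts against 2514 and 2260 and was called lower at -0.34 (SE 0.08, adjusted p = 1.24e-04), which became 0.14 with the length and GC trend removed. Eef1b2, the catalytic beta subunit, had 4184 and 4549 counts against 4150 and 3666 and was not called (-0.11, SE 0.08, adjusted p = 0.198).

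As a share of Eef1b2, the counts of Eef1d went from 19.3% and 15.9% to 8.89% and 8.27%. Eef1e1 (AIMP3), a partner of tRNA synthetases, had 877 and 873 counts in NSD1B WT and 791 and 672 in NSD1B KO, a log2 fold change of -0.21 that was under the limit. Eef2, the translocase, had 1990 and 2044 counts against 1530 and 1429 and was called lower at -0.39 (SE 0.08, adjusted p = 2.01e-05), which became 0.18 with the length and GC trend removed. Eef2k, the kinase that inactivates eEF2, had no count in any library.

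The methyltransferases that modify the elongation factors included the member with the largest bound. Eef1aknmt, which methylates eEF1A, at chromosome 1 from 162532127 to 162548551, had 131 and 118 counts in NSD1B WT and 0 and 0 in NSD1B KO, at least 79.9-fold lower. Eef2kmt, which methylates a lysine of eEF2, had 200 and 269 counts against 60 and 77 and fell by 1.72 (SE 0.19, adjusted p = 2.71e-11), and it shares 17.6% of its exonic bases with Alg1 on the opposite strand. Eef1akmt1 had 1030 and 1060 counts against 808 and 730 and fell by 0.39 (SE 0.09), which was no longer called (-0.03) without the length and GC trend.

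Eef1akmt2 was the 1 gene of the group called higher, with 785 and 789 counts in NSD1B WT and 1059 and 982 in NSD1B KO, a log2 fold change of 0.43 (SE 0.09). Eef1akmt4 was low, with 29 and 40 counts against 17 and 9, and its call at -1.35 (SE 0.41) was lost without NSD1B WT replicate 2 (-1.10, adjusted p = 0.131). Eef1akmt4 shares 30.7% of its exonic bases with Gm49333. Eef1akmt3 had no count.

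The mitochondrion has factors of its own. Of these 9 genes 3 were called higher (33.3%) and 3 lower (33.3%), beside 37.1% and 41.1% of all tested genes. Mtrf1, a mitochondrial release factor, had 0 and 0 counts in NSD1B WT and 333 and 271 in NSD1B KO, at least 209-fold higher. Tsfm, which recharges the mitochondrial elongation factor Tu, had 356 and 350 counts against 1 and 0, and Tufm, that factor itself, had 227 and 245 against 30 and 13 and fell by 3.40 (SE 0.24, adjusted p = 1.59e-17). The elongation factor gene Gfm1 was at -0.54 and was called lower, and Gfm2 was at -0.05 and was not called.

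Exon length and GC content were compared between members and all genes. Median GC content was 49.8% for members called higher, 51.4% for those called lower and 43.9% for those not called, beside 47.6%, 49.9% and 48.8% among all tested genes. Median exon length was 3511, 4462 and 3904 bases, beside 4196, 3752 and 2871 bases. Removing a trend with both from each library moved the median of all genes from -0.10 to 0.16 on the log2 scale and that of the translation factors from -0.15 to 0.06, and the members called became 24 higher and 23 lower.

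**Figure D5:**
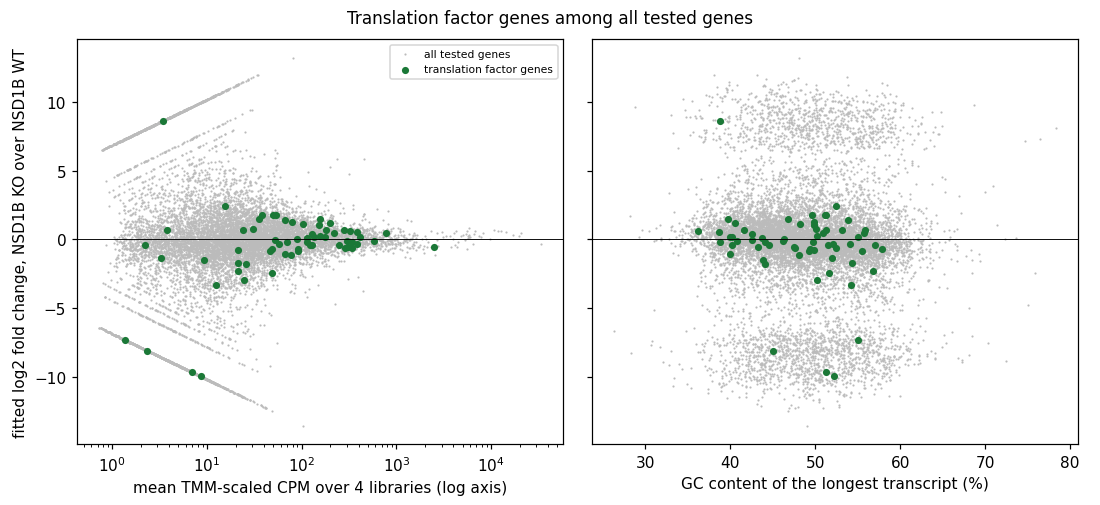
Fitted log2 fold change of NSD1B KO over NSD1B WT against the mean level (left, CPM on a log axis) and against the GC content of the longest transcript (right, percent). Grey marks are the 11657 tested genes and green marks the 63 tested translation factor genes. Straight lines of marks at the edges of the left panel are genes with 0 counts in one genotype, whose fitted value depends on the prior count. As a set the translation factor genes lie at higher levels than all tested genes and have a smaller median absolute change (0.72 against 1.16). Beside genes of like level that change was smaller only within 100 to 300 CPM.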

How the data were processed

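RNA from sorted splenic B220+ B cells was sequenced in 4 libraries, 2 per genotype, with genotypes taken from the labels. The authors deposited whole-number read counts per gene, not normalized and not divided by gene length. Per the Methods, 150 bp paired-end reads were aligned to mm10 with Bowtie2, and the FPKM of Cufflinks described there was not used here. Which program counted the reads, with which strand setting and annotation, is not given in the sources used here. Lines that name no gene were left out: reads on no gene were 44.3% to 44.6% of reads, not unique 11.2% to 13.2% and ambiguous 2.21% to 2.41%.

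Counts were scaled by TMM (factors 0.952 to 1.029) and tested by edgeR 4.0.16 in R 4.3.3 with the quasi-likelihood test. Low genes were removed by filterByExpr (minimum count 10, minimum total 15). Benjamini-Hochberg adjustment ran over all 11657 tested genes. A call needed an adjusted p under 0.05 and a fold change over 1.2. Means are TMM-scaled CPM with SD. A gene at 0 in a genotype was set to 3 counts over that group, and a limit of 3 counts in a single library is 0.41 to 0.445 CPM, for counting error only. Single genes were given no exact permutation test, since 2 against 2 libraries cannot bring it under 0.05. Positions, exon lengths and transcripts came from GENCODE M21, which matched 99.5% of identifiers, and promoter windows from RefSeq (GRCm38.p6). The pipeline was run on simulated counts in which few genes changed, all by the same absolute log2 amount. Most tested genes were called in these data, so that run does not measure the error rates here.

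The members and all gene lists were chosen with earlier results of these data known. Any member could be named. Counts of each library are given for members with at least 10 counts in all, but for the scanning factors and eIF3 only for the highest level, the 2 largest increases and the 2 largest decreases. Genes of other lists were named when called with an absolute log2 fold change of at least 1 or when among the 3 with the most counts. The 13 pseudogene rows left out held 122 to 244 counts in a library. Alternatives covered scaling, filters, DESeq2 1.42.0, limma-voom 3.58.1, leaving out each library, a replicate block, a length and GC trend, and stricter thresholds.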

Additional observations from a re-analysis of the deposited data

How the results depend on the processing

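The counts of members called, 21 higher and 28 lower, were within 1.5 times of these under every alternative run. Replicate numbers did not pair the libraries (correlation of the deviations of libraries with the same number 0.06), and with the replicate block 21 were called higher and 28 lower. Leaving out each library gave 21 to 22 higher and 26 to 30 lower. Stricter thresholds (adjusted p under 1e-05, absolute log2 fold change over 0.5) left 18 and 21, and requiring 1 CPM in each of the 4 libraries, which removed 6 members, left 20 and 24. Removing the trend with exon length and GC content gave 24 and 23, and 24 and 22 together with the replicate block, and moved the median of the members from -0.15 to 0.06 in both. That removal turned Eif4a3 to 0.19, Eef2 to 0.18 and Eef1g to 0.14, with and without the block. The cause was not tested. It also ended the calls of Eif3k (-0.14), Eif6 (-0.14) and Eef1akmt1 (-0.03) and brought in Eif5a (0.71), Eif4b (0.62), Eif2b5 (1.18) and Eif3m (-0.33). Eif2b5 and Eif3j2, which were not called, had fewer than 100 counts in every library. So did Eef1akmt4, Eif2b2, Eif4e3 and Eif5a2, which were called. The part of low depth in these calls was not tested, and 3 members with few counts could not be tested.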
